A study of Homo sapiens with 21 samples.

Results

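The 252 genes described here had low values and stood higher in hTERT-HPNE cells 4 h after hydrogen peroxide (H2O2) than in untreated cells. They were chosen by that difference. A member had a mean under 7 over all 21 libraries and a mean in H2O2 at 4 h more than 0.58 above the untreated mean, both in rLog values, which are on a log2 scale. Of 19694 genes with values that varied, 9668 had a mean under 7 and 256 of these passed the second limit. The symbols ABCC2, COL11A2, COL20A1 and HSPA6 were then left out by their first letters. The difference at 4 h is therefore what the choice rests on and is given without a test.

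RNA was sequenced from hTERT-HPNE, an immortalized nontransformed pancreatic cell line, in 7 groups of 3 biological replicates. The groups were untreated cells (0 h), cells taken 4, 8 or 24 h after 300 μM H2O2, and cells taken 4, 8 or 24 h after 400 ng/ml neocarzinostatin (NCS), which cuts both strands of DNA. Cells of every treated group had been given fresh media with the agent, and all libraries come from 1 cell line. The mesenchymal and progenitor markers of the line, VIM and NES, read between 16.79 and 17.25 and between 11.78 and 12.28, and the epithelial keratins KRT8 and KRT18 between 7.73 and 8.28 and between 11.38 and 11.85. The ductal keratin KRT19 read at most 0.73 in any library. Since rLog values are not counts, sequencing depth cannot be given, and precision is limited by the 3 libraries per group.

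A limit of 7 does not mark silent genes here. It stood at the 49.1st percentile of the genes' means, and the median gene of a library read between 7.14 and 7.19, so the members are called low-expressed below. Their means ran from 2.32 to 6.97 with a median of 4.34. Of the 252 members, 28 had a mean under 3, 135 from 3 to 5, and 89 from 5 to 7. The other 9412 genes under 7 were lower still, with a median near 1 in each library (0.98 to 1.06).

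Transcription of a gene does not always end where its annotated transcript does. In stressed mammalian cells, RNA polymerase II can fail to stop at the end of an active gene and run on for many kilobases, and the RNA made in this way can cover a silent gene that follows. Reads from such RNA are counted for that gene although its own promoter has not been used. Other low genes, such as the immediate-early genes and chemokines, have promoters that stress kinases and AP-1 switch on. The position of each member was therefore described beside its values.

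The promoters of 4 members with a motif match are shown as examples and do not represent the set. IL8 is a chemokine and DUSP8 a phosphatase of stress kinases, XIRP1 is a striated-muscle gene with 1 of the largest rises, and AOC2 starts just behind an expressed gene. Each line gives the 250 bases before the start in RefSeq (GRCh38.p14), read in the direction of transcription, with matches in capitals to TGACTCA (the AP-1 site), to TGACGTCA (the CRE), to TGACNNNGC (the antioxidant response element) or to the TATA box, spelled TATAAA. The windows are chr4:73740319-73740568 (plus strand) for IL8, chr11:1572272-1572521 (minus) for DUSP8, chr3:39192596-39192845 (minus) for XIRP1 and chr17:42844330-42844579 (plus) for AOC2.
IL8: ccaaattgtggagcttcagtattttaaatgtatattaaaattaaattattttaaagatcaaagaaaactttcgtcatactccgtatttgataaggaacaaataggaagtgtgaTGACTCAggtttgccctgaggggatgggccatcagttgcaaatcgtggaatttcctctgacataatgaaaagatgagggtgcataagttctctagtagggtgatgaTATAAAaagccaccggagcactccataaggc
DUSP8: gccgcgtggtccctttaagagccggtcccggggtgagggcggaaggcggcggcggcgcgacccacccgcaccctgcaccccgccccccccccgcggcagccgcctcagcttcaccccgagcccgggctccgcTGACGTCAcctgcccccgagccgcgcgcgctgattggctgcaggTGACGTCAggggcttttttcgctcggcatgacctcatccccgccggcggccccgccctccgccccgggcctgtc
XIRP1: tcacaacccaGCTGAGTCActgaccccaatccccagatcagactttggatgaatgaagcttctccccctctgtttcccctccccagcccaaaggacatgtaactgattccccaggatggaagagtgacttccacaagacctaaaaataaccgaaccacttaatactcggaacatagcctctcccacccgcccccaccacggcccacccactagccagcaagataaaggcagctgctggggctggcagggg
AOC2: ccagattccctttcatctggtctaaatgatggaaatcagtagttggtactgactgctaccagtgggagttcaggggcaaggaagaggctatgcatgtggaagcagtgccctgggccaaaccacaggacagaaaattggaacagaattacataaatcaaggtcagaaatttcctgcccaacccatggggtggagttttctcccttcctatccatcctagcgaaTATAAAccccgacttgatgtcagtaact
IL8 held TGACTCA from base -137 to -131 and TATAAA from -31 to -26, and DUSP8 held TGACGTCA at -118 to -111 and at -74 to -67. In XIRP1 the capitals cover TGACTCA on the other strand, at -238 to -232, within an overlapping match to TGACNNNGC at -240 to -232. AOC2 held TATAAA at -28 to -23. The window of CELSR2, another member with a large rise, held no match.

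RefSeq promoters were at hand for 123 of the 252 members. Searched on both strands in the 250 bases, TGACTCA was present in 7 of these, or 5.69%, against 4.20% of all 35116 promoters. TATAAA was present in 13.8% against 10.7%, TGACNNNGC in 12.2% against 10.9%, and TGACGTCA in 1.63% against 1.65%. The heat shock element was present in 0 of the 123 against 0.441% of all, and the CArG box in 0.813% against 1.16%. These shares describe letters in a window and were not tested.

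The members' typical value was about 1 log2 unit higher in H2O2 at 4 h and was close to that of untreated cells in every NCS group. The median member read between 4.10 and 4.11 in the 3 untreated libraries and between 5.12 and 5.14 in the 3 libraries of H2O2 at 4 h. At 8 h of H2O2 it read between 4.49 and 4.55, and at 24 h between 4.17 and 4.20. In the 9 NCS libraries it lay between 4.11 and 4.16. The 3 libraries of each H2O2 group thus stood close together, and no 2 H2O2 groups overlapped.

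Taken gene by gene, the median difference from untreated cells was 0.80 at 4 h of H2O2, then 0.25 at 8 h and finally 0.03 at 24 h. For NCS it was -0.0014, 0.01 and 0.01 at the same times. Of the 252 members, 72 had a rise over 1 at 4 h, a size called for 0.655% of all genes, and 7 a rise over 2. At 8 h of H2O2, 36 were still more than 0.58 above untreated cells, and at 24 h 8 were. The median member had 30.4% of its rise left at 8 h and 3.14% at 24 h, as differences on the log2 scale, and 81 members were at or under the untreated mean at 24 h. Over all genes tested by limma with Benjamini-Hochberg adjustment, 26.2% were higher in H2O2 at 4 h than in untreated cells, a contrast from which nothing is read about the members because it chose them.

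**Figure D1:**
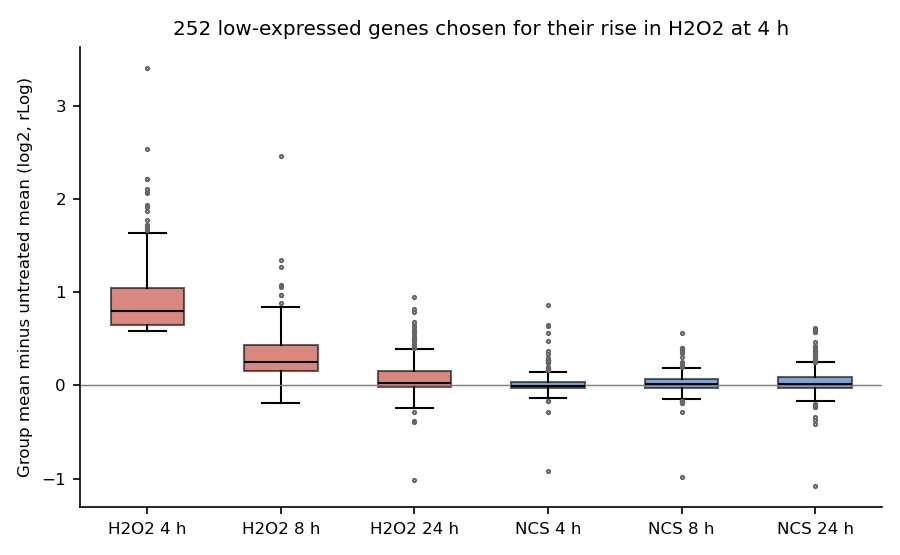
Each box shows, for the 252 members, the group mean minus the untreated mean in log2 (rLog) units on the vertical axis, for the 3 H2O2 groups (red) and the 3 NCS groups (blue). The line is the median, the box the interquartile range, the whiskers reach 1.5 box heights and dots are members beyond them. The medians are 0.80, 0.25 and 0.03 in H2O2 at 4, 8 and 24 h, and within 0.02 of 0 in NCS.

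Expressed genes with the same rise stood further above untreated cells at 8 h and 24 h, a difference that shares the untreated libraries with the choice and was not tested. The 188 genes with a mean of at least 7 and a rise over 0.58 had H2O2 medians of 0.78, 0.57 and 0.30 in time order, and NCS medians of 0.14, 0.18 and 0.20. Of the 188, 93 were still more than 0.58 above untreated cells at 8 h, or 49.5%, against 14.3% of the members. In comparisons between treated groups the 2 sets lay closer at 8 h. At 8 h 72.9% of the 188 and 70.6% of the members stood above NCS by limma, with median differences of 0.30 and 0.23, and 59.0% and 63.9% fell from 8 h to 24 h of H2O2, with medians of -0.19 and -0.20. At 24 h 47.3% and 10.7% were higher in H2O2 than in NCS. The rLog transformation shrinks differences more in genes with few reads, and its part in these values was not tested.

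H2O2 at 4 h was the group with the highest mean for 249 of the 252 members. For the other 3, CES3, PMEPA1 and FZD8, it was H2O2 at 24 h, by 0.14, 0.02 and 0.01 over the next group. No member had its highest mean in an NCS group or at 8 h. Members were chosen by a high mean in H2O2 at 4 h, which favours that group in these counts.

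The rule's limits cut through a continuous range. The members just inside the limit on the rise were PKLR, LOC284837 and SPIB, each at 0.58, and ITGA2B, GCGR and PLIN4 lay just outside at 0.57, 0.57 and 0.58. Just inside the limit on the mean were CELSR2 at 6.81, LOC100506233 at 6.94 and SIK1 at 6.97, and ZNF862, PSCA and MSC lay outside at 7.07, 7.11 and 7.12.

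Of the 12 members with the largest rise, 11 are described here. They were CELSR2, MMP25, XIRP1, AOC3, ITGA7, PDE4C, DBIL5P, SIK1, KIAA1683, ACAP1 and ACCN4, with rises of 2.54 down to 1.73.

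CELSR2, a cadherin of planar cell polarity, read 6.35, 6.18 and 6.32 in untreated cells and 8.81, 8.86 and 8.79 in H2O2 at 4 h. At 8 h it read 6.90, 6.93 and 7.05, so that most of its rise was gone, and at 24 h it read 6.57, 6.53 and 6.65. Its NCS libraries lay between 6.09 and 6.48. MMP25, a membrane-anchored metalloproteinase of leukocytes, read 5.27, 5.22 and 5.30 in untreated cells, 7.50, 7.45 and 7.51 in H2O2 at 4 h, and 6.23, 6.06 and 6.18 at 8 h. Its NCS libraries, between 5.19 and 5.36, overlapped those of untreated cells.

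XIRP1, an actin-binding protein of striated muscle, also stood higher in NCS at 4 h. It read 4.94, 5.11 and 5.08 in untreated cells, 7.36, 7.24 and 7.17 in H2O2 at 4 h, and 5.72, 5.72 and 5.60 in NCS at 4 h. In H2O2 it read 6.28, 6.31 and 6.58 at 8 h, then 4.88, 4.85 and 4.94 at 24 h, at or under the lowest untreated values. ITGA7, the laminin-binding integrin subunit of muscle, read 5.55, 5.60 and 5.43 in untreated cells, 7.63, 7.63 and 7.56 in H2O2 at 4 h and 6.11, 5.98 and 6.25 at 8 h. At 24 h, between 5.42 and 5.58, it overlapped untreated cells.

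SIK1, a salt-inducible kinase, differed from most members in that no treated library fell into the untreated range of 6.22 to 6.41 except 1 of NCS at 8 h. It read 8.29, 8.11 and 8.32 in H2O2 at 4 h, 7.38, 7.19 and 7.34 at 8 h, then 6.91, 6.87 and 6.96 at 24 h, and 6.82, 7.02 and 6.84 in NCS at 4 h. ACCN4, an acid-sensing channel subunit now named ASIC4, showed the opposite pattern. It read 3.60, 3.59 and 3.72 in untreated cells and 5.39, 5.43 and 5.28 in H2O2 at 4 h, and all NCS libraries lay between 3.56 and 3.65.

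**Figure D2:**
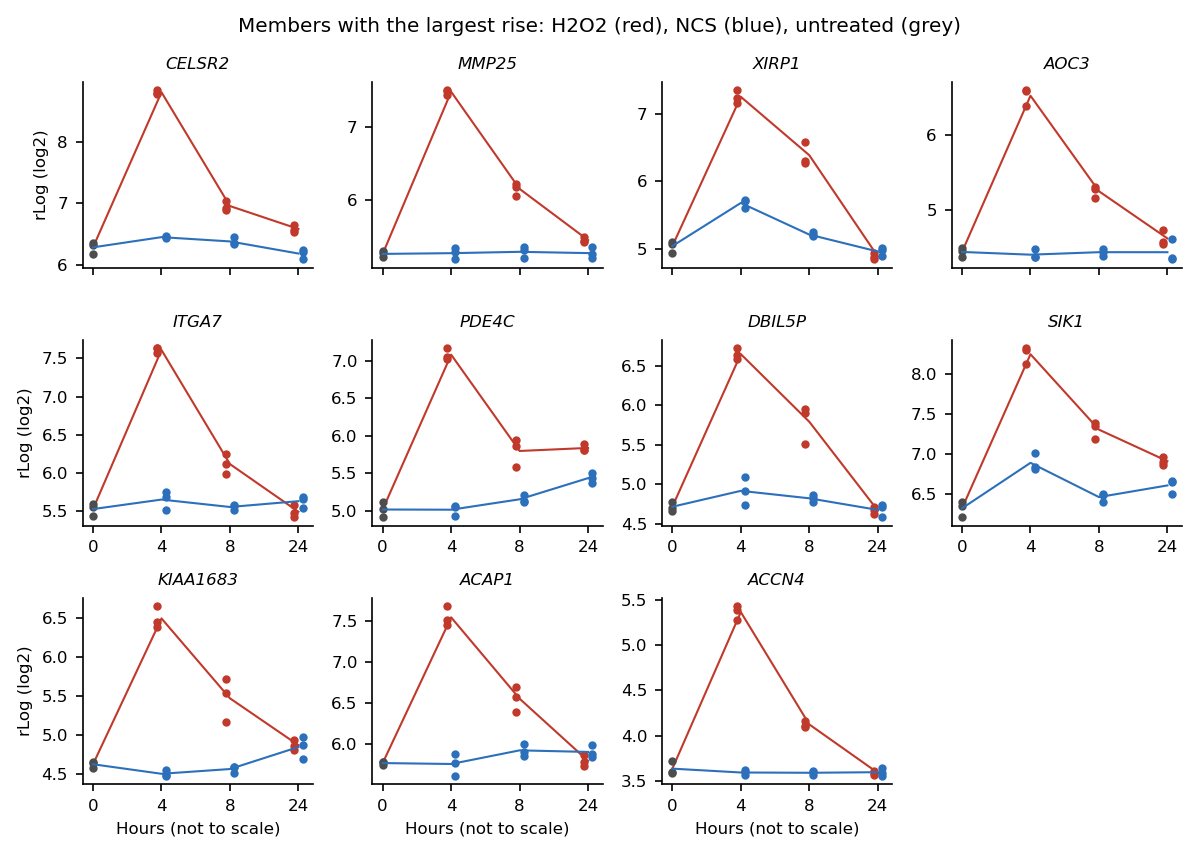
The 11 panels show the rLog values (log2, vertical axis, scaled separately) of 11 of the 12 members with the largest rise at 0, 4, 8 and 24 h (horizontal axis, not to scale). Dots are libraries and lines join group means, with H2O2 in red, NCS in blue and untreated cells in grey. In every panel the 3 libraries of H2O2 at 4 h stand above all others, and PDE4C alone does not fall from 8 h to 24 h.

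Contrasts without the untreated and H2O2 4 h libraries can be tested, since the limit on the rise used only those. The limit on the mean used all 21 libraries, and so did the spread between replicates from which each p was computed. At 8 h most members still stood higher in H2O2 than in NCS. By limma with Benjamini-Hochberg adjustment over all 19694 genes, 178 of the 252 members passed as higher in H2O2 at an adjusted p under 0.05, or 70.6%, against 18.7% of all genes tested and 7.35% of other genes with a mean under 7. The adjusted p did not pass for 71, and 3 were lower, or 1.19% against 15.4% of all genes. The differences were small, with a median of 0.23 over the members and of -1e-04 over all genes.

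XIRP1, SERPINB10, DBIL5P and GPD1 were among the 5 members with the largest of these differences at 8 h. XIRP1 stood above NCS by 1.18 (SE 0.07, limma adjusted p = 1.83e-09). SERPINB10, a serpin of blood cells, read 5.69, 5.52 and 5.90 in H2O2 and 4.53, 4.55 and 4.54 in NCS, a difference of 1.16 (SE 0.08, limma adjusted p = 4.17e-09). DBIL5P, a pseudogene related to diazepam binding inhibitor, was higher by 0.97 and GPD1, a cytosolic glycerol-3-phosphate dehydrogenase, by 0.93. In none of the 4 did the H2O2 and NCS libraries at 8 h overlap.

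The 3 members lower in H2O2 at 8 h were IL32, DUSP8 and LOC100505696. IL32, a cytokine gene, read 6.41, 6.77 and 6.64 in H2O2 and 6.80, 6.88 and 6.93 in NCS at 8 h, a difference of -0.26 (SE 0.08, limma adjusted p = 0.0133). DUSP8 differed by -0.22 (SE 0.07, limma adjusted p = 0.0241) and LOC100505696 by -0.20. These 3 calls were lost when only these groups were fitted.

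By 24 h fewer members differed between the agents. In H2O2 27 were higher than in NCS, or 10.7% against 11.0% of all genes and 3.27% of other genes with a mean under 7. A further 6 were lower, or 2.38% against 10.9% of all genes and 2.65% of the other low genes. The difference between these shares was not tested. With library medians aligned, 29 were higher and 12 lower. FZD8, a WNT receptor, was higher by 0.55 (SE 0.07, limma adjusted p = 8.16e-06), with libraries at 6.92, 6.84 and 6.77 against 6.22, 6.34 and 6.32. NEIL1, a DNA glycosylase, was higher by 0.42 and AOC2 by 0.41. IL32 differed by -0.49, the hypoxia-linked noncoding RNA MIR210HG by -0.43 and DUSP8 by -0.39, and their H2O2 and NCS libraries did not overlap.

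Within H2O2, 161 members fell from 8 h to 24 h, or 63.9% against 23.2% of all genes, and 14 rose, or 5.56% against 19.4%. The median change was -0.20. XIRP1 fell by 1.50 (SE 0.07, limma adjusted p = 1.54e-11) and DBIL5P fell by 1.13. The members with the largest rise over this time were CES3, a carboxylesterase, by 0.45, the zinc finger gene ZNF425 by 0.39 and the myosin gene MYO15B by 0.37. The H2O2 libraries at 8 h and 24 h did not overlap for any of these 5.

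Within NCS few members changed with time. From 4 h to 8 h 2 rose, or 0.794% against 6.16% of all genes and 1.29% of other genes with a mean under 7, and 9 fell, or 3.57% against 7.50% and 1.17%. From 8 h to 24 h 22 rose, or 8.73% against 14.9% and 4.21%, and 13 fell, or 5.16% against 15.0% and 3.17%. These shares thus lay below those of all genes and, except for the first, above those of the other low genes, and the differences were not tested. With library medians aligned, 37 rose and 13 fell from 8 h to 24 h. The interaction of treatment and time from 8 h to 24 h was called for 128 members against 21.4% of all genes. It was negative, a change in H2O2 below that in NCS, for 125 of them (49.6% of the members against 11.8% of all genes). A positive term was called for 3 (1.19% against 9.62%). A negative term can come from a fall in H2O2 or from a rise in NCS.

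An rLog difference over 1 beside the adjusted p was reached by few members. The study set a limit of this size on fold changes computed from counts, a different quantity from differences of rLog values, which are shrunk most in low genes. At 8 h 3 members passed as higher, against 0.157% of all genes and 0.00508% lower. At 24 h the differences ran from -0.49 to 0.55, so that none could pass, against 0.0152% of all genes higher and 0.00% lower. From 8 h to 24 h of H2O2 3 passed as lower, against 0.376% of all genes, and 0.0406% higher. In NCS they ran from -0.47 to 0.37 from 4 h to 8 h, where 0.00% of all genes passed as higher and 0.0152% as lower, and from -0.44 to 0.60 after that, where 0.0102% passed as higher and 0.361% as lower. For the interaction 3 passed as negative, against 0.0355% of all genes, and 0.00508% positive.

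**Figure D3:**
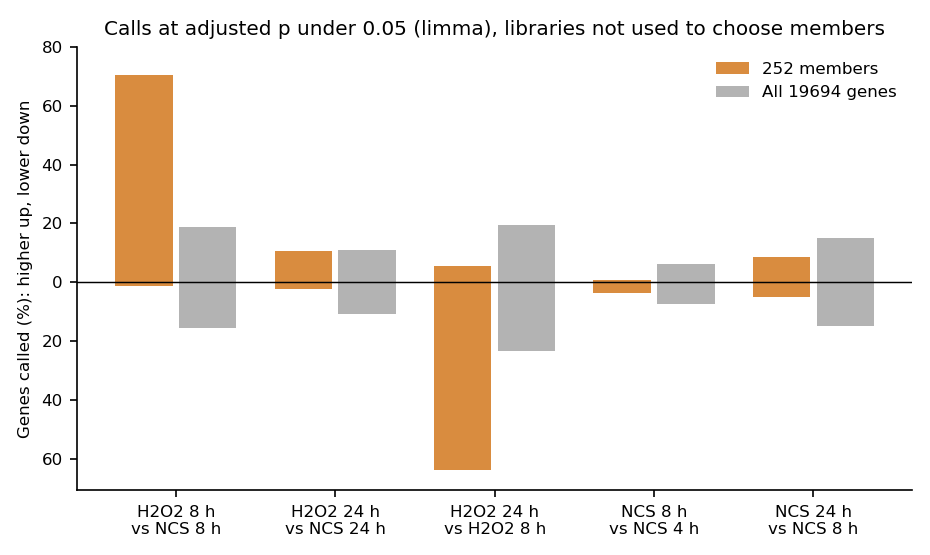
Bars show the percentage of genes called at an adjusted p under 0.05 (limma, Benjamini-Hochberg) in 5 comparisons. Genes higher in the first group stand above 0 and lower ones below. The differences use no library of untreated cells or of H2O2 at 4 h, while the spread was estimated from all 7 groups. The 252 members (orange) reach 70.6% higher in H2O2 than NCS at 8 h and 63.9% lower at 24 h than at 8 h of H2O2, against 18.7% and 23.2% of all 19694 genes (grey).

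Immediate-early genes encode transcription factors and feedback enzymes that a signal switches on without new protein synthesis. Of 40 immediate-early and AP-1 genes measured, 12 had a mean under 7 and 6 of these were members, namely FOS, EGR3, NR4A3, ARC, DUSP8 and SIK1. The list was compiled with results of these data known. NR4A3, an orphan nuclear receptor, read 4.59, 4.55 and 4.62 in untreated cells, 6.14, 6.02 and 5.96 in H2O2 at 4 h, and 4.93, 5.06 and 5.01 at 8 h. ARC, a synaptic immediate-early gene, read 4.04, 4.08 and 4.10 in untreated cells and 5.76, 5.76 and 5.73 in H2O2 at 4 h. In NCS, ARC lay between 4.05 and 4.17 and NR4A3 between 4.51 and 4.75.

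FOS, the AP-1 subunit, was the member that differed most downward in the other groups. It read 6.82, 6.93 and 6.89 in untreated cells, 7.82, 7.58 and 7.53 in H2O2 at 4 h, and 6.58, 6.89 and 6.70 at 8 h. In H2O2 at 24 h it lay between 5.74 and 5.94 and in the 9 NCS libraries between 5.77 and 5.99, all below every untreated library. Between H2O2 and NCS at 8 h FOS was higher by 0.83 (SE 0.08, limma adjusted p = 2.69e-07). DUSP8, whose product dephosphorylates JNK and p38, read 5.92, 5.97 and 6.14 in untreated cells and 7.16, 7.19 and 7.17 in H2O2 at 4 h, and lay between 6.26 and 6.52 in all NCS libraries, above untreated cells. EGR3 had a rise of 1.02 and stood above NCS at 8 h by 0.14 (SE 0.05, limma adjusted p = 0.0429).

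Of 40 cytokine, chemokine and growth factor genes measured, 30 had a mean under 7 and 2 were members, IL8 and TSLP. IL8, a neutrophil chemokine now named CXCL8, read 4.82, 4.82 and 4.78 in untreated cells, 6.12, 5.88 and 5.91 in H2O2 at 4 h, and 5.53, 5.40 and 5.44 in NCS at 4 h. Both agents thus gave values above all untreated libraries at 4 h. At 8 h IL8 stood above NCS by 0.30 (SE 0.06, limma adjusted p = 0.00104). TSLP, an epithelial cytokine, had a rise of 1.02 and differed by 0.08 at 8 h (SE 0.08, limma adjusted p = 0.498).

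These counts stand beside 252 members among all 9668 genes with a mean under 7. Of the others, 3865 had a mean from 2 to 7, the range in which every member lay. A list with a few low genes may thus hold none without standing apart. No member was found among the integrated stress and unfolded protein response genes, of which 4 of 20 measured had a mean under 7. There was also none among 2 such low genes of 13 heat shock factors and co-chaperones. The same held for 7 such genes of 22 NRF2 targets and metallothioneins, and for 4 of 29 p53 targets. HSPA6 and ABCC2 passed both limits but were left out by their first letters, so genes with these prefixes could not appear here.

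Position was examined with GENCODE v29 gene bodies on GRCh38, while the submitters' processing notes name hg19. Of the 252 members, 241 were matched, 204 by name, 16 by gene ID and 21 by a synonym. Of the matched members 213 were protein-coding and 12 antisense genes. An expressed gene was one with a mean of at least 9, of which 6877 were placed.

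A large share of the matched members began behind an expressed gene. Of the 241, 89 started within 20 kb behind the end of an expressed gene transcribed in the same direction, or 36.9%. The share was 10.0% among 8814 other genes with a mean under 7, 14.4% among the 3586 of them with a mean from 2 to 7, and 15.6% among 186 expressed genes with the same rise. A further 10 members, 4.15%, lay inside an expressed gene read in the same direction. For these 10, reads of the host and of the member can be confused. The strand setting of the counting is not given, so this may also hold for members that overlap an expressed gene on the other strand. The median distance of the 89 from the expressed gene was 5.37 kb.

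The 3 other arrangements of neighbouring genes also had higher shares among members than among other low genes, though by less. An expressed gene began within 20 kb after 19.5% of members, against 11.3% of other genes with a mean from 2 to 7. It lay behind a divergent start for 11.6% against 10.2%, and faced the member end to end for 17.8% against 15.0%. Members lay inside an expressed gene on the other strand in 5.39% of cases, against 8.09% of other genes with a mean from 2 to 7 and 5.38% of all other genes under 7. These shares were not tested, since neighbouring genes are not independent, and how densely genes lie along each region was not adjusted for.

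Counted the other way, genes with a mean from 2 to 7 had higher shares of members within 50 kb behind an expressed gene than farther away, with little order among the bins inside 50 kb. Of those starting within 1 kb of its end on the same strand, 12 of 67 were members, or 17.9%. The share was 14.0% at 1 to 5 kb, 14.4% at 5 to 20 kb, 12.5% at 20 to 50 kb, 7.76% at 50 to 100 kb and 2.97% beyond. The median difference of all genes in these bins was 0.16, 0.15, 0.18, 0.18, 0.09 and 0.04 in H2O2 at 4 h, and none of the bins exceeded 0.03 in NCS at 4 h. Genes that lay ahead of an expressed gene, in the same direction, were members in 9.52% of cases within 1 kb, or 4 of 42. Their share was 11.3% at 1 to 5 kb, 10.9% at 5 to 20 kb and 9.65% at 20 to 50 kb. It was 7.51% at 50 to 100 kb and 4.97% beyond 100 kb.

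**Figure D4:**
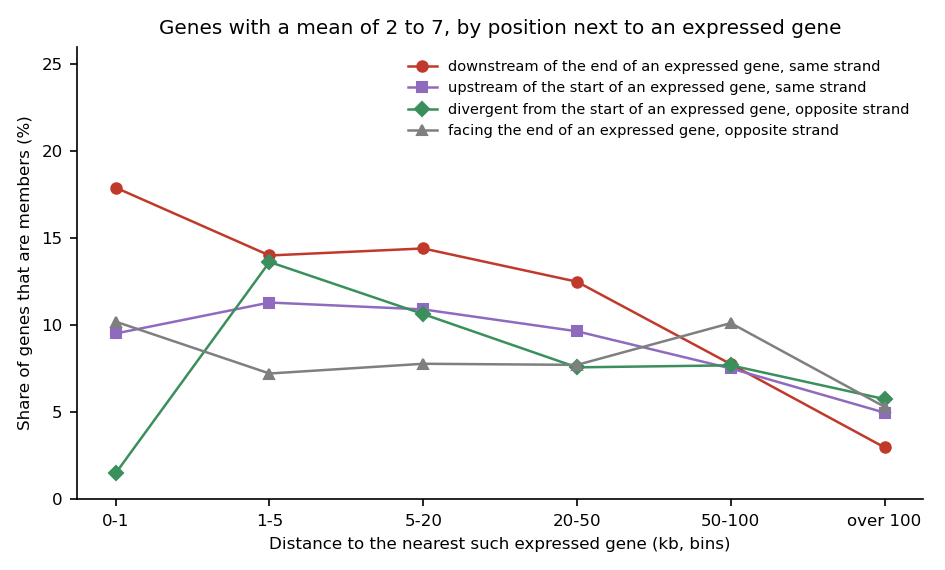
The vertical axis is the percentage of genes with a mean from 2 to 7 that are members, and the horizontal axis is the distance to the nearest expressed gene in kb, in 6 bins. Lines stand for 4 arrangements of the gene and its expressed neighbour. Downstream on the same strand (red circles) the share falls from 17.9% within 1 kb to 2.97% beyond 100 kb. The first divergent bin holds 2 members of 134 genes, and the next 2 divergent bins hold 13.6% and 10.6%.

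The expressed genes ahead of these members mostly did not share their rise. The 89 members lay behind 88 different genes, whose median difference between H2O2 at 4 h and untreated cells was 0.02, from -0.53 to 1.14. Of the 88, 38 were below 0 and 3 were over 0.58, namely AEN, JUND and HERPUD1. The member stood further above untreated cells than its upstream gene in 88 of 89 pairs, by a median of 0.85, and the rule itself set the members' side of this gap. Per kb of exon, the member lay below its upstream gene in all 89 pairs, by a median of 6.58 log2 units in untreated cells and 5.61 in H2O2 at 4 h. The limits on the means, under 7 for members and at least 9 for expressed genes, largely fixed this direction, and the narrower gap at 4 h is the rise that chose the members.

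The 8 members closest behind an expressed gene were VWA7 (after VARS), DOK3 (DDX41), DQX1 (AUP1), CCDC11 (MBD1), PTPN6 (C12orf57), ACCN3 (ABCB8), EFCAB4A (PNPLA2) and AMH (SF3A2), at 0.224 to 0.63 kb. AMH, the anti-Müllerian hormone, had differences of 0.94, 0.34 and -0.03 in H2O2 in time order. SF3A2, a splicing factor, had 0.07, 0.09 and -0.40 at the same times. PTPN6, a phosphatase of blood cells, had 0.83 and C12orf57 0.26 at 4 h. VWA7 had 0.70 and the valyl-tRNA synthetase gene VARS -0.08.

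**Figure D5:**
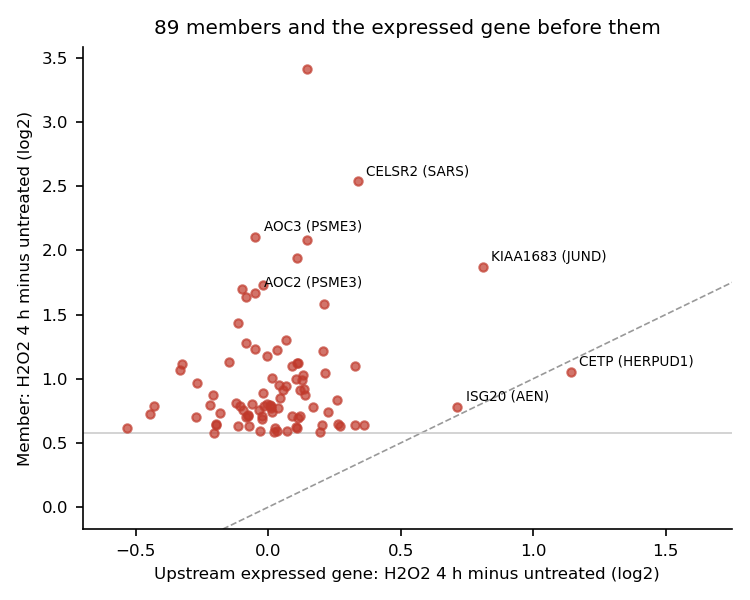
Each dot is 1 of the 89 members behind an expressed gene, with the upstream gene's difference between H2O2 at 4 h and untreated cells (log2) on the horizontal axis and the member's on the vertical axis. The dashed line marks equal differences, the grey line the limit of 0.58, and labels give the member with its upstream gene in brackets. Of the 89 dots, 88 lie above the dashed line, and most upstream genes lie near 0.

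AOC2 and AOC3, copper amine oxidase genes that follow each other on chromosome 17, both lay behind PSME3, a proteasome activator gene. AOC2 started 0.842 kb and AOC3 7.43 kb behind its end. AOC2 read 5.50, 5.72 and 5.64 in untreated cells, 7.33, 7.26 and 7.28 in H2O2 at 4 h, and 6.27, 6.17 and 6.08 at 24 h. AOC3 read 4.44, 4.49 and 4.36 in untreated cells, 6.60, 6.61 and 6.40 at 4 h, then 4.57, 4.53 and 4.73 at 24 h. PSME3 lay between 12.69 and 12.82 in all 21 libraries. AOC2 and AOC3 are close copies of each other, and how the counting treated reads that fit both is not given in the sources used here.

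KIAA1683, now IQCN, and PDE4C, a cAMP phosphodiesterase, followed JUND on chromosome 19. KIAA1683 read 4.64, 4.57 and 4.65 in untreated cells and 6.65, 6.39 and 6.45 in H2O2 at 4 h. PDE4C read 5.11, 5.02 and 4.91 in untreated cells, 7.17, 7.02 and 7.05 at 4 h, then 5.81, 5.89 and 5.81 at 24 h. JUND, an AP-1 subunit, differed from untreated cells by 0.81 at 4 h, by -0.13 at 8 h and by -0.12 at 24 h. KIAA1683 differed by 0.85 and PDE4C by 0.78 at 8 h, when JUND was no longer above untreated cells.

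In all, 9 pairs of members were direct neighbours on the same strand, 18 members together. Besides AOC2 with AOC3 and PDE4C with KIAA1683, they were MMP25 with IL32, C2 with CFB, LAD1 with TNNI1, PALM with C19orf21, PTK6 with SRMS, RPL32P3 with C3orf25, and LOC100216546 with LOC100216545. C2 and CFB, complement genes that overlap, read between 3.60 and 3.66 and between 3.90 and 3.99 in untreated cells, and between 5.01 and 5.05 and between 5.16 and 5.28 in H2O2 at 4 h. MMP25 and IL32 had different courses. At 24 h of NCS, IL32 read 6.98, 7.07 and 7.06, above its untreated values of 6.51, 6.32 and 6.56, while MMP25 stayed between 5.20 and 5.36.

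Of the members with large differences at 8 h, SERPINB10 lay inside SERPINB2 on the same strand and DBIL5P opposite GEMIN4 within its body. SERPINB2, an inhibitor of plasminogen activators, was lower in H2O2 than in NCS at 8 h, with a difference of -0.20 (SE 0.03, limma adjusted p = 6.51e-06), while SERPINB10 was higher. GPD1 started 3.11 kb behind SMARCD1, a chromatin remodelling subunit, which at 8 h was higher in H2O2 than in NCS by 0.45 (SE 0.04, limma adjusted p = 2.56e-08). XIRP1 and SIK1 had no expressed gene ahead of them on the same strand within 300 kb.

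Members within 20 kb behind an expressed gene had values close to those of the 142 that were neither that close behind nor inside one. Of these 142, 45 started 20 to 50 kb and 26 started 50 to 100 kb behind an expressed gene on the same strand. The median rise was 0.80 and 0.79, and at 8 h 71.9% and 69.0% were higher in H2O2 than in NCS by limma. After 8 h of H2O2 the median difference from untreated cells was 0.25 and 0.24, and after 24 h it was 0.03 in both. No test of these differences between members was made.

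Factors that cut and polyadenylate transcripts and release the polymerase act at the ends of genes, and their own transcripts were measured in the same cells. Of 47 such genes measured, none of them members, 14 were higher and 20 lower in H2O2 at 4 h than in untreated cells by limma at an adjusted p under 0.05. These are 29.8% and 42.6%, against 26.2% and 19.7% of all genes, and the median difference was -0.06. Of the 47, 1 had a mean under 7, against 49.1% of all genes, and expression level was not adjusted for. Among other genes with a mean under 7, 5.42% had all H2O2 4 h libraries below untreated cells and 28.1% above. The shares of all genes were 22.3% and 27.2%. PPP1R10, which encodes the phosphatase 1 partner PNUTS, rose by 1.32 (SE 0.06, limma adjusted p = 1.74e-11), PCF11, a termination factor, by 0.81 and CSTF3, a cleavage stimulation factor subunit, by 0.68. RPRD2, which binds the polymerase tail, fell by 0.64 and CSTF1 fell by 0.62. These are transcript levels, and their part in the members' rise was not tested.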

How the data were processed

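RNA-seq was performed on 21 libraries of hTERT-HPNE cells with a stranded mRNA kit. The authors aligned the reads with HISAT2 to hg19, counted them with HTSeq and transformed them with DESeq2 (submitters' processing notes and the study's methods). Versions and the strand setting of the counting are not given in the sources used here. The deposited values are rLog, on a log2 scale and shrunk most in genes with few reads, and were used as deposited. Of 23368 names, 3674 read 0 throughout and were dropped, and 27 had been turned into dates.

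Groups were taken from the labels. All 7 groups were fitted together with limma 3.58.1 (R 4.3.3, mean-variance trend, Benjamini-Hochberg adjustment over 19694 genes), and genes were called at an adjusted p under 0.05. On simulated data for H2O2 against NCS at 8 h, limma recovered 99 of 100 genes changed by 0.6 and 76 of 100 changed by 0.3. Of the calls, 4.37% were unchanged genes. The simulation used normal noise around 1 mean per gene and changed no other genes, while 34.1% of all genes were called in the data. These rates therefore describe that setting only. Tables were prepared with Python 3.11.15.

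The members, lists and named genes were chosen with earlier results of these data known. Named were the 12 largest rises, the 3 genes either side of each limit, the largest called differences, the 8 members closest behind an expressed gene, list members, and the 5 end-processing factors with the largest difference. Some genes that this rule names are not reported here. The neighbour pairs and loci set out beside them, and the members named in the closing section, were picked after their values were seen. The processing was varied by aligning medians, by quantile normalization, by a minimum mean of 3, by a limit of 1 on the log2 difference, by fitting the compared groups alone, by blocking on the replicate number and by omitting single libraries.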

Additional observations from a re-analysis of the deposited data

Results flagged for a closer look

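For 8 of the named members, the change from 8 h to 24 h differed between H2O2 and NCS by the interaction term (limma, Benjamini-Hochberg adjustment over all genes). The change in H2O2 minus that in NCS was -1.25 for XIRP1 (SE 0.10, limma adjusted p = 4.14e-07), with -1.50 in H2O2 and -0.25 in NCS, and -1.12 for SERPINB10, with -0.94 and 0.17. It was -0.98 for DBIL5P, -0.89 for GPD1 and -0.29 for AOC2. For AOC2 the change was -0.09 in H2O2 and 0.20 in NCS, and for MIR210HG the term was -0.42, with 0.03 in H2O2 and 0.46 in NCS. The sign was positive for NEIL1 at 0.32, with 0.21 and -0.11, and for LOC100505696 at 0.24, with 0.37 and 0.13 (limma adjusted p = 0.0321).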

How the results depend on the processing

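Of 198 repeats of 18 named differences, 188 stayed past the threshold, 10 did not, all of IL32, DUSP8 or LOC100505696 at 8 h, and none reversed. With a log2 difference over 1 as well, 3 members were above and 0 below NCS in H2O2 at 8 h, 0 higher and 0 lower at 24 h, 0 rose and 3 fell from 8 h to 24 h of H2O2, 0 rose and 0 fell in both steps of NCS, and 3 had an interaction. With only the groups compared fitted, 152 were higher and 0 lower than NCS in H2O2 at 8 h. In that fit 134 fell and 9 rose from 8 h to 24 h of H2O2. With medians aligned, 12 were lower in H2O2 at 24 h, 4 rose from 4 h to 8 h and 37 from 8 h to 24 h of NCS. The count that rose from 4 h to 8 h of NCS was 1 after quantile normalization and 5 with a mean of at least 3. The cause was not tested.

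With 1 library left out, 162 to 184 members were above and 1 to 3 below NCS in H2O2 at 8 h, and 21 to 24 higher and 3 to 6 lower at 24 h. From 8 h to 24 h of H2O2, 11 to 14 rose and 142 to 159 fell. In NCS 1 to 4 rose and 7 to 9 fell from 4 h to 8 h, and 13 to 22 rose and 4 to 10 fell from 8 h to 24 h. The interaction was called for 111 to 131. Of the end-processing factors, 12 to 13 were higher and 17 to 19 lower. The count lower in H2O2 at 8 h was 1 without NCS 8 h replicate 3, and that at 24 h was 3 without the second replicate of either group. From 4 h to 8 h of NCS, 1 rose without NCS 4 h replicate 2 or 3 and 4 without NCS 8 h replicate 3. From 8 h to 24 h, 13 rose and 5 fell without NCS 24 h replicate 2, and 4 fell without NCS 8 h replicate 1.

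The number of members was 251 to 254 with a library left out, 163 with a mean under 5, 72 with a rise over 1 and 168 after quantile normalization. Within 5 kb, 41 members began behind an expressed gene, and within 50 kb 134, or 17.0% and 55.6% against 4.03% and 17.8% of other genes under 7. Against other genes with a mean of 2 to 7, a choice made after seeing the data, the comparison share at 20 kb was 14.4%.

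Over all groups, the mean correlation of deviations was 0.0274 for the same replicate number and -0.0137 for different numbers. The second value follows largely from the first, since deviations within a group sum to 0. For the same number it was 0.14 between H2O2 and NCS at 8 h and 0.09 at 24 h. It was 0.09 between NCS at 8 h and 24 h, 0.03 between H2O2 at 8 h and 24 h, and -0.04 between NCS at 4 h and 8 h. Whether replicate numbers pair the libraries was not tested. With the replicate block, 175 members were above NCS in H2O2 at 8 h and 1 rose from 4 h to 8 h of NCS, and no other count moved by over 1.5 times. The rLog values hold no depth, and how far their shrinkage changed the differences of the lowest members was not tested.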

Other observations

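The members below were chosen after their values were seen, and no count over a tissue's genes was made. RYR1, the calcium channel of skeletal muscle, read 3.64, 3.63 and 3.62 in untreated cells and 5.18, 5.32 and 5.14 in H2O2 at 4 h. CKM, the muscle creatine kinase, read 3.51, 3.51 and 3.53 and then 4.90, 4.73 and 4.86. PYGM, the muscle glycogen phosphorylase, had a rise of 1.12. At 8 h CKM was still higher in H2O2 than in NCS by 0.57 (SE 0.04, limma adjusted p = 1.14e-08).

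ITGAM, the integrin subunit of myeloid cells, read 3.68, 3.61 and 3.60 in untreated cells and 5.35, 5.37 and 5.34 in H2O2 at 4 h. CTSW, a protease of lymphocytes, had a rise of 1.18 and LTA, a lymphocyte cytokine, 0.83. Among leukocyte markers, PTPRC, the CD45 gene, read between 0.89 and 0.98 over all 21 libraries, CD14 between 2.48 and 2.68, ITGB2, the partner subunit of ITGAM, between 2.21 and 2.48, and CSF1R between 4.93 and 5.50. H2O2 at 4 h minus untreated cells was 0.0045 for PTPRC, 0.04 for CD14, 0.20 for ITGB2 and 0.40 for CSF1R. CD3E and the muscle regulators MYOD1 and MYOG were not among the genes tested.

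RRAD, a small GTPase gene, stood above all untreated libraries in all 6 treated groups. Its differences from untreated cells were 1.58, 1.27 and 0.95 in H2O2 and 0.86, 0.56 and 0.58 in NCS at 4, 8 and 24 h.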
